A study of Mus musculus with 8 samples.

Results

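The genes described here build cholesterol and fatty acids, sense sterols, or store and move cholesterol. They are 35 genes chosen by name: every non-control probe on the arrays that carries a listed gene symbol, or the older names Sc4mol for Msmo1 and Sc5dl for Sc5d, was taken, which gave 67 probes of 41174. Each gene is represented by its brightest probe, and all 35 are among the 20023 features tested, where a feature is the brightest probe of a gene name or accession.

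The arrays compared RNA of mouse B cell precursors that differ in Pax5, a transcription factor needed for commitment to the B lineage. All cells were pro/preB cells from the bone marrow of Pax5-/- mice, grown with IL-7 on irradiated OP9 cells, a stromal feeder line. Clone 4, which is 1 clone, carried a human Pax5 transgene (huPax5) behind a doxycycline-responsive promoter (TRE) and the transactivator rtTA, and was given doxycycline at 10, 300 or 1000 ng/ml. Pax5sz2 cells carried rtTA only and are labelled as treated with doxycycline, with no dose given. The partner on every array was clone 4 without doxycycline (0 ng/ml). Pax5sz2 against clone 4 therefore differs in the transgene, in doxycycline and in the cells themselves, which cannot be told apart. Each of these 4 comparisons was hybridised on 2 arrays with the dyes swapped, so there are 8 arrays and 1 RNA sample per treated group. A single comparison has no p-value. A value given as "mean ± SD" is over the 2 arrays of the same RNAs and holds technical spread only.

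Cholesterol is built from acetyl-CoA through mevalonate, farnesyl diphosphate and squalene, and then through a series of sterol intermediates. When membrane sterol falls, SCAP carries the SREBP factors (the products of Srebf1 and Srebf2) to the Golgi, where they are cleaved and freed to switch on the genes of sterol and fatty acid synthesis. When sterol is plentiful, INSIG proteins hold SCAP in the endoplasmic reticulum, SOAT1 esterifies cholesterol for storage, and the ABC transporters export it. Dividing lymphoid precursors are known to need this pathway for new membrane.

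Values are log2 ratios of the named RNA over clone 4 without doxycycline, so 1 is a 2-fold higher level and -1 a 2-fold lower level. In each pair of values, the first comes from the array with the named RNA in Cy5 and the second from the array with it in Cy3. Where values of all 4 comparisons are listed in order, the order is 10, 300 and 1000 ng/ml and then Pax5sz2. A gene was called only where its ratio was 1 or more, or -1 or less, on both arrays. The direction of the 1000 ng/ml pair is not settled. Taken over 41174 probes, its ratios and those of 300 ng/ml were opposed, with a correlation of -0.36 between the Cy5 arrays and -0.46 between the Cy3 arrays, and no text used here, other than the labels themselves, states which RNA was in which dye. Its values are given as labelled; with the sign turned, each 1000 ng/ml ratio below has the opposite sign and the same size. Per the file headers the spots of that pair were read with other settings than those of the 6 other arrays (the threshold for being well above background used a multiplier of 2.6, against 13), so the dose and the reading of the slides cannot be told apart for it.

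Across whole arrays, 40.4% to 45.1% of spots were well above background on the 1000 ng/ml pair and 59.5% to 75.5% on the 6 others. The array of 300 ng/ml with the treated RNA in Cy5 stood apart: it had 295 outlier spots, and its ratios correlated with those of its dye-swapped partner at 0.64, against 0.83 to 0.92 in the other comparisons. Blnk and Cd79a, which are known targets of Pax5, had mean ratios of -0.90 and -0.74 at 10 ng/ml, 2.62 and 0.16 at 300 ng/ml, and -4.20 and -1.44 at 1000 ng/ml as labelled. The brighter of the 2 mouse Pax5 probes read 2.66 ± 0.20, 2.36 ± 0.055, 0.11 ± 0.20 and 3.02 ± 0.19 in the 4 comparisons, in order. It was thus highest in Pax5sz2, which carries rtTA only. The other Pax5 probe read -0.11 ± 0.059, 0.23 ± 0.073, -0.45 ± 0.11 and -0.27 ± 0.032. Whether either probe detects the human transgene is not known here, so they do not check the labels. The B lineage genes Cd79b, Ebf1, Il7r and Rag1 were well above background in both RNAs of all 8 arrays. Vpreb1 and Igll1, of the surrogate light chain of early B cells, were so in clone 4 on 3 of 8 arrays each. In Pax5sz2 the mean ratios of Vpreb1 and Igll1 were 7.88 and 5.65, and that of Blnk was -3.41. The RNA is from bulk cultures, in which fewer cells of a type and less RNA per cell cannot be told apart.

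Few of the 35 genes reached a 2-fold difference. At 10 ng/ml no member was called in either direction, beside 0.609% of all features called higher and 1.27% called lower. At 300 ng/ml Msmo1 alone was called higher (1.32% of all features) and none lower (2.36%). At 1000 ng/ml as labelled Elovl6 alone was called lower (0.634% of all features) and none higher (1.93%); with the sign turned, Elovl6 is the gene called higher. In Pax5sz2 Cyp51 was called higher (2.34% of all features) and Hsd17b7 lower (2.83%). With each array centred on its median in place of loess, Msmo1 was no longer called at 300 ng/ml, and Msmo1 was called in Pax5sz2 in place of Cyp51. With Agilent's processed signals too, Msmo1 was not called at 300 ng/ml, and Sc5d was. The background moved with the scaling as well. By the loess ratios, features called higher and lower numbered 122 and 255 at 10 ng/ml, 264 and 473 at 300 ng/ml, 387 and 127 for the pair of 1000 ng/ml as labelled, and 468 and 566 in Pax5sz2. By median centring they numbered 75 and 76, 97 and 386, 146 and 47, and 479 and 203 in the same order. By the processed signals they numbered 362 and 693, 771 and 1082, 680 and 239, and 1012 and 1156. With the mean over all tested probes of a gene, Cyp51 was not called. Just inside the limit were Msmo1 at 300 ng/ml, with 1.00 and 1.00, and Cyp51 in Pax5sz2, with 1.04 and 1.00. Closest outside it, by the size of the ratio nearer to 0, were Sc5d at 300 ng/ml, with 1.24 and 0.97, Msmo1 in Pax5sz2, with 0.96 and 1.24, Tm7sf2 at 300 ng/ml, with -1.04 and -0.88, and Scd1 in Pax5sz2, with -0.95 and -0.81.

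By the loess ratios, the median of the 35 genes lay near that of all features in every comparison. Their median ratios in the 4 comparisons, in order and as labelled, were -0.04, -0.07, -0.06 and 0.03, beside medians of 0.01, 0.00, 0.00 and 0.03 over all features. Genes above 0 on both arrays numbered 15 (38.5% of all features), 12 (35.8%), 10 (33.7%) and 17 (41.9%) in that order. Genes below 0 on both numbered 15 (36% of all features), 13 (35.1%), 17 (30.5%) and 13 (35.2%). In the 4 comparisons 0, 1, 8 and 2 members lay below the 5th percentile of all features, and 4, 4, 3 and 4 above the 95th. The sign of the members' median depends on the scaling: with each array centred on its median in place of loess, it was 0.24, 0.07, -0.17 and 0.34. The medians over all features were then 0.07, 0.04, -0.02 and 0.15.

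**Figure D1:**
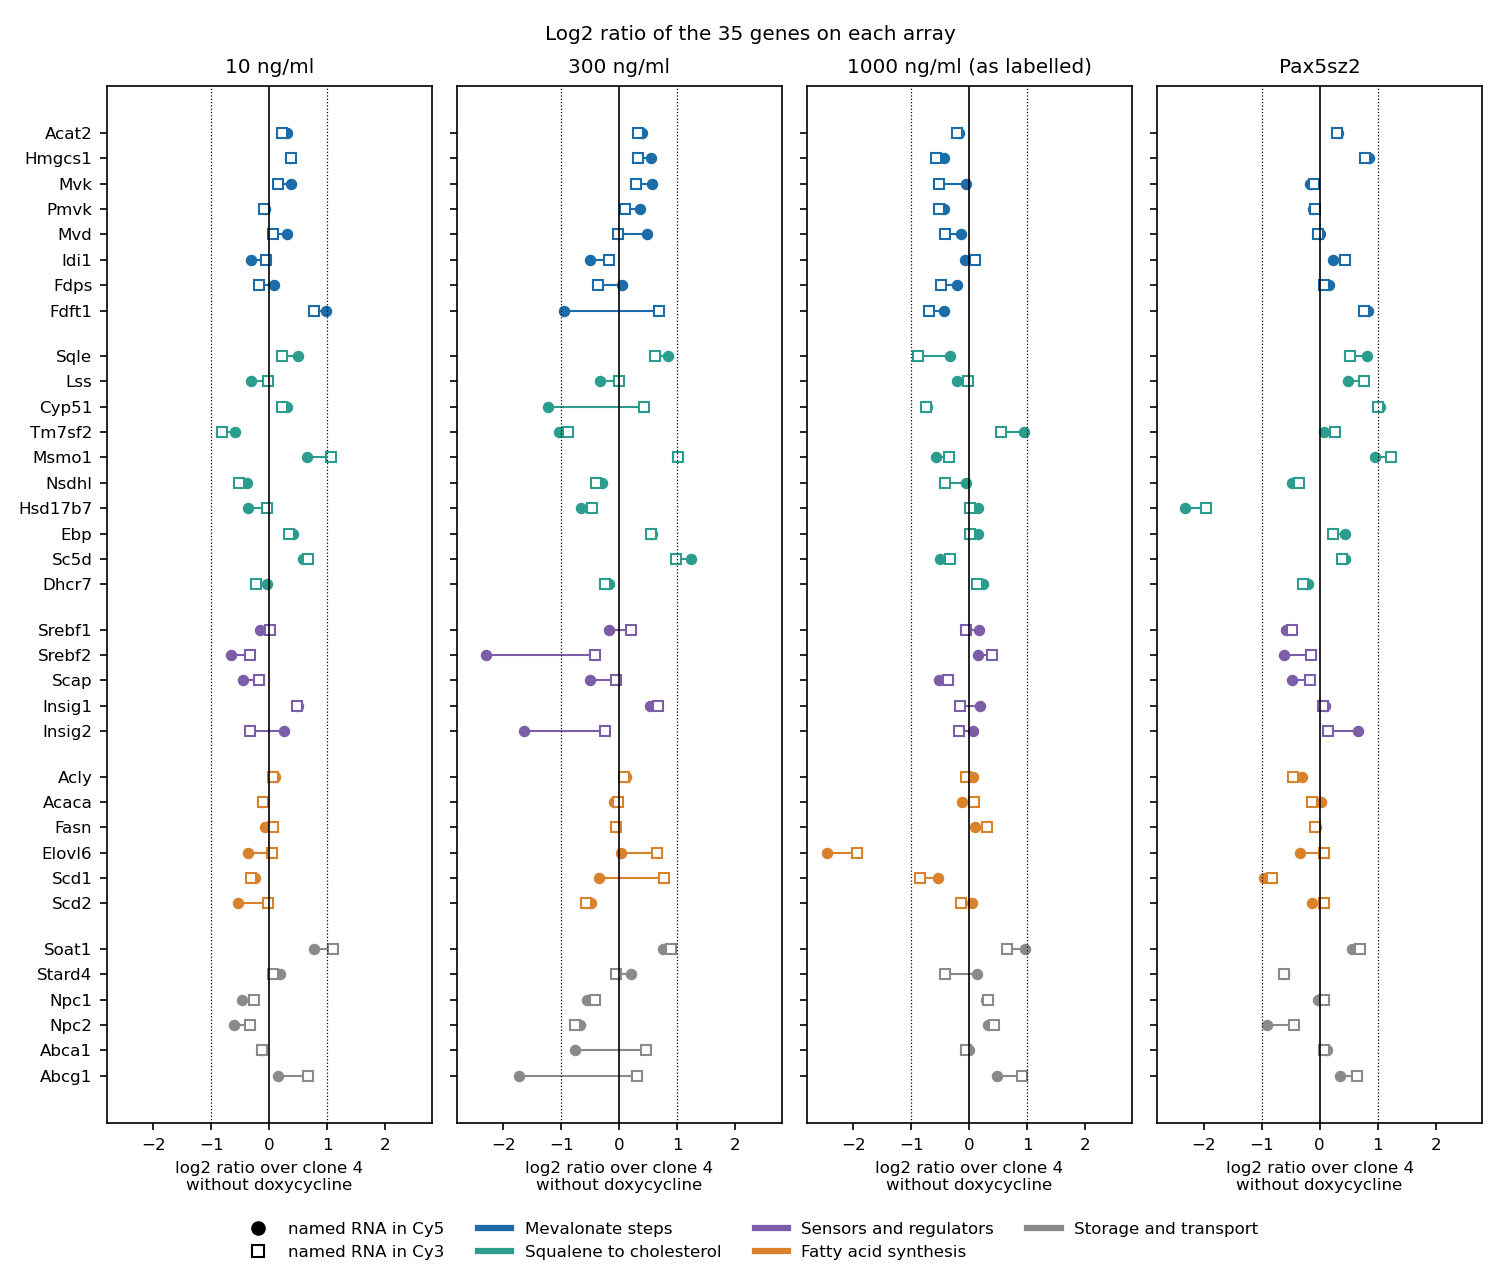
Log2 ratio over clone 4 without doxycycline (x axis) of each of the 35 genes (y axis, grouped by role) in the 4 comparisons; filled circles are arrays with the named RNA in Cy5, open squares arrays with it in Cy3, a line joins the 2 arrays of a gene, and dotted lines mark -1 and 1. Elovl6 at 1000 ng/ml (mean -2.19) and Hsd17b7 in Pax5sz2 (mean -2.14) lie apart from the other genes, and the long lines at 300 ng/ml are the 7 genes whose arrays differed by 1 or more.

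**Figure D2:**
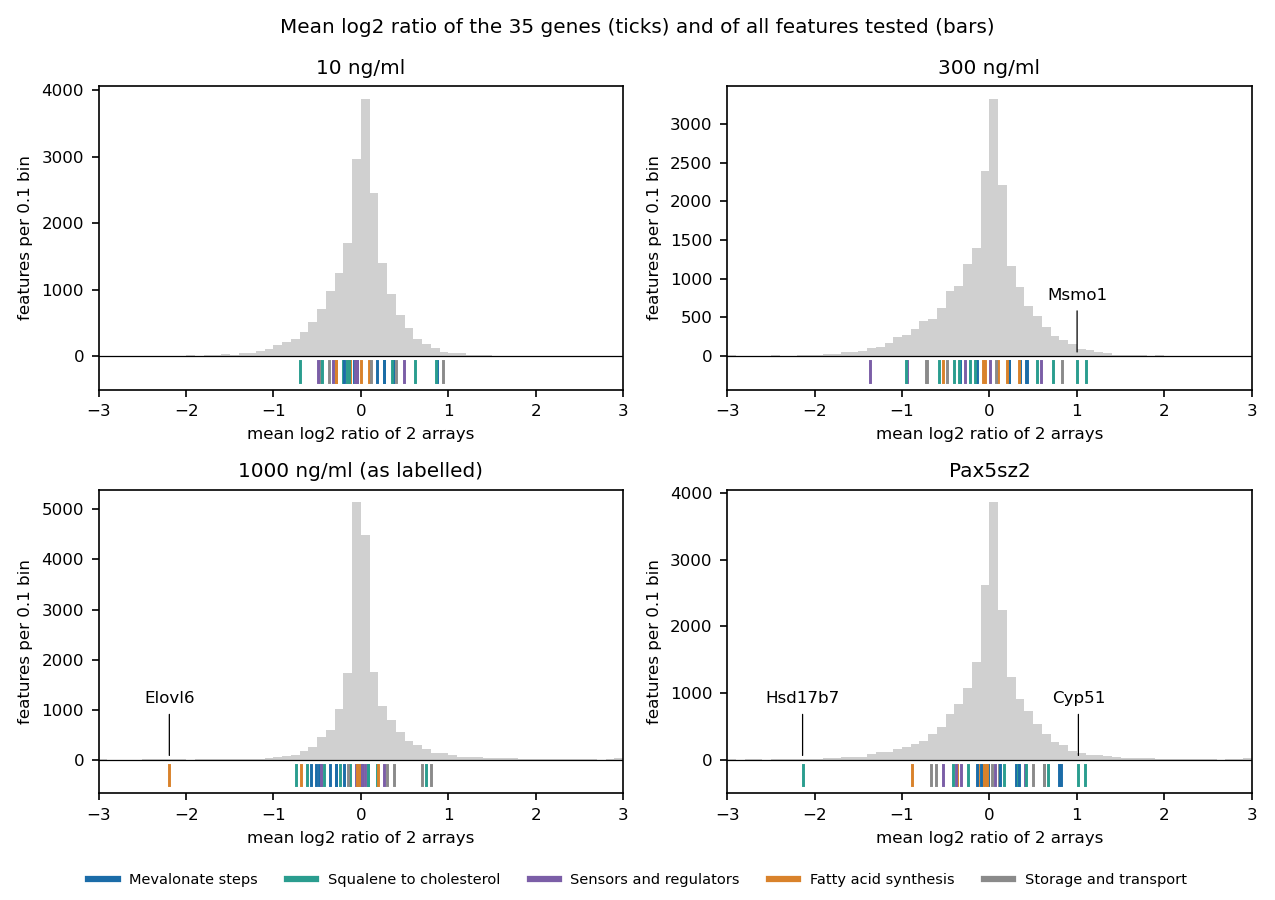
Number of features per 0.1 of mean log2 ratio (grey bars, y axis) against mean log2 ratio of 2 arrays (x axis, with features beyond -3 or 3 counted in the end bins), with the 35 genes as coloured ticks below 0 on the y axis and the called genes named. The ticks spread on both sides of 0 in all 4 comparisons, with medians between -0.07 and 0.03.

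Promoter sequence is shown for the genes on which the results turn: Hmgcs1, Msmo1 and Sc5d, whose ratios were above 0 on all 4 arrays of 10 and 300 ng/ml, Tm7sf2, which was below 0 on those arrays, and Hsd17b7 and Elovl6, which had the largest differences. Each sequence is the 250 bases before the gene's start in RefSeq (GRCm38.p6), 5′ to 3′ on the gene's strand. Capitals mark CCAAT on either strand (ATTGG on the other), the site of NF-Y, a known partner of the SREBP factors, and TCACNCCAC, the core of the sterol regulatory element, on either strand.
Hmgcs1 (chr13:119690101-119690350, + strand): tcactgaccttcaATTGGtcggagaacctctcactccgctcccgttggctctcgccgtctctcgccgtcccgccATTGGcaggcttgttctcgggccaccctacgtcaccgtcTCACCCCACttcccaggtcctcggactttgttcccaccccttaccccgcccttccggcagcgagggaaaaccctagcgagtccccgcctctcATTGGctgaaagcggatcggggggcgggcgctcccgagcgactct
Msmo1 (chr8:64733579-64733828, - strand): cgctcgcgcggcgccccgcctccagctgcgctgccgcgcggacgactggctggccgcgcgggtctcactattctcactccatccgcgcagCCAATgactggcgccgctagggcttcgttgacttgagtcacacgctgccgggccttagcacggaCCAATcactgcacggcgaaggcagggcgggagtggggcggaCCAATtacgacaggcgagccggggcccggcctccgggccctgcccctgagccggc
Sc5d (chr9:42264301-42264550, - strand): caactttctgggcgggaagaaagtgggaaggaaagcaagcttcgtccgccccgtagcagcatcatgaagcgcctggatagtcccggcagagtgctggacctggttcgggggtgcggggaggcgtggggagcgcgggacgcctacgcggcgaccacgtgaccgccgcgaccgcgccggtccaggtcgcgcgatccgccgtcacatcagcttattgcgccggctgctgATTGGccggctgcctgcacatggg
Tm7sf2 (chr19:6067851-6068100, - strand): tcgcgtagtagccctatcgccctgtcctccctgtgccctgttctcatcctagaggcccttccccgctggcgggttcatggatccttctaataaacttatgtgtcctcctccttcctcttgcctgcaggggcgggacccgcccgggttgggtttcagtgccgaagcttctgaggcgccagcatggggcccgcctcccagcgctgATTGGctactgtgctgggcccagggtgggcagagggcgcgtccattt
Hsd17b7 (chr1:169969206-169969455, - strand): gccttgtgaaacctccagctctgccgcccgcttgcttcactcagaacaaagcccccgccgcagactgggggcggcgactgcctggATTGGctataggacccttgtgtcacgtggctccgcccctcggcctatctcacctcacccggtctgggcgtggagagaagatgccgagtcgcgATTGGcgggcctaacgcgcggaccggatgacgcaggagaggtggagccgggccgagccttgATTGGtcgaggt
Elovl6 (chr3:129532136-129532385, + strand): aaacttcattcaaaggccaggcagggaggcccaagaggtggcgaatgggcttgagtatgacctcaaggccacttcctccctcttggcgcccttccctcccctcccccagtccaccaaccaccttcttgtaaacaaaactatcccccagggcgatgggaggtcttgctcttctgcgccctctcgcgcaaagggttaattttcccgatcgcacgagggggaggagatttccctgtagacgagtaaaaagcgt
Msmo1, Hsd17b7 and Hmgcs1 hold 3 CCAAT matches each, Sc5d and Tm7sf2 hold 1, and Elovl6 holds 0. Genes that were higher and genes that were lower therefore both carry these letters.

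RefSeq promoters were matched for 27 of the 35 genes, with 35 start sites. CCAAT was found before 22 of the 35 start sites (62.9%), beside 33.8% of 32851 promoters of the same length. GGGCGG, the GC box bound by SP1, was found before 25 (71.4%), beside 32.7% of all. TCACNCCAC was found before 1 (2.86%), that of Hmgcs1, beside 1.05% of all. Both strands were searched, each motif was counted alone, so matches of different motifs may overlap, and a match is a description of the letters only.

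Of the 8 enzymes from acetyl-CoA to squalene, 7 were below 0 on both arrays at 1000 ng/ml as labelled (30.5% of all features), with a median of -0.32; with the sign turned these 7 are above 0. Their median was 0.22 and 0.23 at the lower doses and 0.21 in Pax5sz2, and none was called in any comparison. Hmgcs1 makes HMG-CoA, the precursor of mevalonate. Its log2 ratio was 0.36 and 0.38 at 10 ng/ml (0.37 ± 0.011), 0.54 and 0.32 at 300 ng/ml (0.43 ± 0.16), -0.44 and -0.57 at 1000 ng/ml (-0.51 ± 0.089) and 0.85 and 0.79 in Pax5sz2 (0.82 ± 0.047). It was higher than in clone 4 on all 6 arrays outside the 1000 ng/ml pair. Fdft1, squalene synthase, commits farnesyl diphosphate to sterols. Fdft1 ratios were 0.98 and 0.77 at 10 ng/ml (0.88 ± 0.15), -0.96 and 0.69 at 300 ng/ml (-0.14 ± 1.16), -0.43 and -0.70 at 1000 ng/ml (-0.57 ± 0.19) and 0.84 and 0.76 in Pax5sz2 (0.80 ± 0.058). The arrays of 300 ng/ml went opposite ways for it, and the low value is from the array that stood apart.

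Acat2, which joins acetyl-CoA units in the opening step, read 0.31 and 0.22 at 10 ng/ml, 0.38 and 0.32 at 300 ng/ml, -0.18 and -0.21 at 1000 ng/ml, and 0.32 and 0.29 in Pax5sz2. The mevalonate kinase Mvk read 0.37 and 0.15, 0.56 and 0.28, -0.05 and -0.52 and -0.17 and -0.10 in the same order. Both were above 0 on all 4 arrays of the lower doses, and Acat2 but not Mvk was above 0 in Pax5sz2. The phosphomevalonate kinase Pmvk read -0.07 and -0.09, 0.36 and 0.09, -0.44 and -0.52 and -0.11 and -0.08. Idi1, which isomerises isopentenyl diphosphate, read -0.32 and -0.06, -0.50 and -0.19, -0.07 and 0.09 and 0.23 and 0.44. Idi1 was thus the enzyme of this stretch that was below 0 on both arrays at 10 and 300 ng/ml, though its mean at 10 ng/ml turned above 0 under another scaling. The array design's own coordinates place both Idi1 probes on another chromosome than the RefSeq gene, and whether they also detect a near-identical copy was not tested. By their brightest probes Mvd and Fdps, the decarboxylase and the farnesyl diphosphate synthase, had means between -0.36 and 0.23 in all 4 comparisons.

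The sterol steps from squalene to cholesterol split. Of 10 genes, 5 were above 0 and 5 below 0 on both arrays at 10 ng/ml (38.5% and 36% of all features). In Pax5sz2 7 were above and 3 below (41.9% and 35.2%), with a median of 0.37. At 1000 ng/ml as labelled 4 were above and 6 below (33.7% and 30.5%); with the sign turned these counts trade places. Msmo1, the methylsterol monooxygenase, removes methyl groups from lanosterol products. Its log2 ratio was 0.65 and 1.06 at 10 ng/ml (0.86 ± 0.29), 1.00 and 1.00 at 300 ng/ml (1.00 ± 0.00044), -0.58 and -0.35 at 1000 ng/ml (-0.46 ± 0.16) and 0.96 and 1.24 in Pax5sz2 (1.10 ± 0.20). It had the highest mean of the 35 genes in Pax5sz2, and it was higher on all 6 arrays outside the 1000 ng/ml pair. Sc5d, a sterol desaturase, read 0.57 and 0.67 at 10 ng/ml (0.62 ± 0.065), 1.24 and 0.97 at 300 ng/ml (1.11 ± 0.19), -0.51 and -0.33 at 1000 ng/ml (-0.42 ± 0.13) and 0.45 and 0.38 in Pax5sz2 (0.41 ± 0.044). Squalene epoxidase, Sqle, read 0.49 and 0.22 at 10 ng/ml (0.36 ± 0.19), 0.85 and 0.62 at 300 ng/ml (0.73 ± 0.16), -0.34 and -0.89 at 1000 ng/ml (-0.62 ± 0.39) and 0.81 and 0.53 in Pax5sz2 (0.67 ± 0.20). By their brightest probes, Msmo1, Sc5d and Sqle thus shared the signs of Hmgcs1 on all 8 arrays. With the sign of the 1000 ng/ml pair turned all of these probes were above 0 throughout. The same signs at the 3 doses, Pax5sz2 aside, held for 11.6% of all features. The dimmer Sc5d probe read -0.88 and 0.13 at 300 ng/ml, and 1.36 and 1.44 in Pax5sz2, past the size limit. The dimmest Hmgcs1 probe had means of -0.12, -0.11, -0.40 and -0.09 in the 4 comparisons.

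Cyp51, the lanosterol demethylase, differed between comparisons. Its log2 ratio was 0.30 and 0.23 at 10 ng/ml (0.26 ± 0.051), -1.23 and 0.42 at 300 ng/ml (-0.41 ± 1.17), -0.72 and -0.76 at 1000 ng/ml (-0.74 ± 0.023) and 1.04 and 1.00 in Pax5sz2 (1.02 ± 0.025). The other 2 probes of Cyp51 read 0.77 ± 0.12 and 0.71 ± 0.058 in Pax5sz2, so all 3 were above 0 there. Tm7sf2, a sterol reductase that acts next to Cyp51 in the pathway, read -0.59 and -0.81 at 10 ng/ml (-0.70 ± 0.15), -1.04 and -0.88 at 300 ng/ml (-0.96 ± 0.11), 0.94 and 0.55 at 1000 ng/ml (0.74 ± 0.27) and 0.07 and 0.27 in Pax5sz2 (0.17 ± 0.14). Its signs at the 3 doses were the reverse of those of Msmo1, Sc5d and Sqle. Nsdhl, Ebp, Dhcr7 and Lss, which act between lanosterol and cholesterol or close the sterol rings, had means between -0.45 and 0.62. Of these, Nsdhl by its brightest probe was below 0 on all 8 arrays and Ebp above 0 on all 8 as labelled, beside 2.51% and 3.21% of all features. The dimmest Nsdhl probe read 0.42 ± 0.27 in Pax5sz2, where the brightest read -0.42 ± 0.080.

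Hsd17b7, the ketoreductase of the sterol pathway, had the largest difference of the group outside the 1000 ng/ml pair. Its log2 ratio was -0.36 and -0.04 at 10 ng/ml (-0.20 ± 0.23), -0.67 and -0.47 at 300 ng/ml (-0.57 ± 0.14), 0.15 and 0.01 at 1000 ng/ml (0.08 ± 0.10) and -2.32 and -1.95 in Pax5sz2 (-2.14 ± 0.26). In Pax5sz2 only 56 of 20023 features had a lower mean ratio. The Pax5sz2 RNA read 9.25 and 9.63 on the scale of log2 signal, where clone 4 without doxycycline lay between 11.5 and 11.8 on all 8 arrays. The second Hsd17b7 probe, of the same transcript accession, read only -0.30 ± 0.077 in Pax5sz2, so the probes disagreed by 1.84. On the arrays of 10 and 300 ng/ml that probe was above 0 throughout (0.12 ± 0.092 and 0.24 ± 0.19).

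Among the sensors and regulators, none was called in any comparison. Insig1, which retains SCAP in the endoplasmic reticulum and is itself an SREBP target, read 0.50 and 0.49 at 10 ng/ml (0.49 ± 0.0088), 0.53 and 0.66 at 300 ng/ml (0.59 ± 0.092), 0.19 and -0.17 at 1000 ng/ml (0.01 ± 0.25) and 0.09 and 0.05 in Pax5sz2 (0.07 ± 0.024). This probe was above 0 on all 4 arrays of the 2 lower doses and near 0 elsewhere. The other tested Insig1 probe, of the same accession, read 0.08 and -0.03 at 10 ng/ml (0.02 ± 0.077) and 0.49 and 0.24 at 300 ng/ml (0.36 ± 0.17). Its relative Insig2 read 0.25 and -0.34 at 10 ng/ml, -1.65 and -0.24 at 300 ng/ml, 0.06 and -0.18 at 1000 ng/ml, and 0.66 and 0.15 in Pax5sz2. Srebf2, the main driver of sterol synthesis, read -0.65 and -0.33 at 10 ng/ml, -2.30 and -0.43 at 300 ng/ml, 0.14 and 0.38 at 1000 ng/ml, and -0.61 and -0.15 in Pax5sz2. It was below 0 on all 6 arrays outside the 1000 ng/ml pair, by the most on the array that stood apart. That probe carries the accession of a cDNA clone, and the 3 other tested Srebf2 probes had means between -0.20 and 0.48 at 300 ng/ml. Median centring turned the mean of Srebf2 in Pax5sz2 above 0.

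Srebf1, whose product favours fatty acid genes, read -0.15 and 0.01 at 10 ng/ml, -0.17 and 0.19 at 300 ng/ml, 0.16 and -0.06 at 1000 ng/ml, and -0.57 and -0.48 in Pax5sz2. It was near 0 at each dose and lower on both Pax5sz2 arrays. Scap, the escort of both factors, read -0.46 and -0.18 at 10 ng/ml, -0.50 and -0.06 at 300 ng/ml, -0.53 and -0.38 at 1000 ng/ml, and -0.48 and -0.16 in Pax5sz2. Like the brightest Nsdhl probe, Scap was below 0 on all 8 arrays as labelled. With the sign of the 1000 ng/ml pair turned neither is.

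By their brightest probes, fatty acid synthesis genes moved little outside Elovl6 and Scd1. Elovl6 lengthens saturated fatty acids that FASN has made. Its log2 ratio was -0.36 and 0.05 at 10 ng/ml (-0.16 ± 0.30), 0.02 and 0.64 at 300 ng/ml (0.33 ± 0.44), -2.45 and -1.93 at 1000 ng/ml (-2.19 ± 0.37) and -0.35 and 0.08 in Pax5sz2 (-0.13 ± 0.30). At 1000 ng/ml as labelled 27 of 20023 features had a lower mean ratio; with the sign turned these 27 are higher. In the 3 other comparisons 1 of the 2 arrays lay within 0.08 of 0. Scd1, a stearoyl-CoA desaturase, read -0.24 and -0.32 at 10 ng/ml (-0.28 ± 0.056), -0.35 and 0.76 at 300 ng/ml (0.20 ± 0.79), -0.54 and -0.84 at 1000 ng/ml (-0.69 ± 0.22) and -0.95 and -0.81 in Pax5sz2 (-0.88 ± 0.097). The 300 ng/ml arrays disagreed on it by more than 1.

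The related desaturase Scd2 read -0.55 and -0.02 at 10 ng/ml, -0.49 and -0.58 at 300 ng/ml, 0.05 and -0.15 at 1000 ng/ml, and -0.13 and 0.08 in Pax5sz2, so it was lower on both arrays at the 2 lower doses. Acly, which makes cytosolic acetyl-CoA from citrate, read 0.11 and 0.07, 0.12 and 0.08, 0.06 and -0.06 and -0.30 and -0.45 in the same order. Fatty acid synthase itself, Fasn, read -0.07 and 0.06, -0.08 and -0.06, 0.10 and 0.30 and -0.06 and -0.08. Fasn stayed between -0.08 and 0.30 on all 8 arrays, with means whose sign changed with the scaling in every comparison, and Acly was lower on both arrays of Pax5sz2 alone. By its brightest probe the acetyl-CoA carboxylase gene Acaca had means between -0.12 and -0.03. On the 1000 ng/ml pair that probe was well above background on only 1 array in each RNA. The dimmest tested Acaca probe read -0.65 ± 0.42 at 10 ng/ml and -0.48 ± 0.32 at 300 ng/ml. The remaining Acaca probe read 0.18 ± 0.064 and -0.05 ± 0.34 there.

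Among storage and transport genes, Soat1 had the steadiest difference. Soat1 esterifies cholesterol for storage in droplets. Its log2 ratio was 0.77 and 1.09 at 10 ng/ml (0.93 ± 0.22), 0.76 and 0.90 at 300 ng/ml (0.83 ± 0.096), 0.95 and 0.65 at 1000 ng/ml (0.80 ± 0.21) and 0.55 and 0.71 in Pax5sz2 (0.63 ± 0.11). It was 0.55 or higher on all 8 arrays as labelled; with the sign turned the 1000 ng/ml pair is below 0. Its other 2 tested probes were dimmer, and their means lay between -0.12 and 0.20 in all 4 comparisons. Npc2, which hands cholesterol to NPC1 in late endosomes, read -0.60 and -0.34 at 10 ng/ml (-0.47 ± 0.18), -0.67 and -0.77 at 300 ng/ml (-0.72 ± 0.070), 0.33 and 0.42 at 1000 ng/ml (0.37 ± 0.068) and -0.90 and -0.45 in Pax5sz2 (-0.67 ± 0.32). It was lower than in clone 4 on all 6 arrays outside the 1000 ng/ml pair. Npc1 itself had means of -0.37, -0.49, 0.30 and 0.03 in the 4 comparisons.

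Stard4, a cytosolic sterol carrier, read 0.18 and 0.06 at 10 ng/ml, 0.21 and -0.06 at 300 ng/ml, 0.14 and -0.42 at 1000 ng/ml, and -0.62 and -0.61 in Pax5sz2. Its brightest probe was lower in Pax5sz2, where its 2 other probes read 0.17 and 0.11. At 1000 ng/ml as labelled those probes read -0.90 ± 0.11 and -0.81 ± 0.072, while the arrays of the brightest probe had opposite signs. Abcg1, which exports cholesterol to lipoproteins, read 0.14 and 0.66 at 10 ng/ml, -1.72 and 0.30 at 300 ng/ml, 0.48 and 0.91 at 1000 ng/ml, and 0.35 and 0.64 in Pax5sz2. As labelled it was above 0 on 7 of 8 arrays, all but the 300 ng/ml array that stood apart; with the sign of the 1000 ng/ml pair turned it is above 0 on 5 of 8. Abca1, the other exporter, had means between -0.16 and 0.11, and on the 1000 ng/ml pair it was not well above background in either RNA.

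The 300 ng/ml values depend on which array is read. The arrays differed by 1 or more for 7 of the 35 genes (20%), Fdft1, Cyp51, Insig2, Srebf2, Abcg1, Abca1 and Scd1, beside 6.84% of all features, and for none in the other comparisons. For all 7 the array with the treated RNA in Cy5 was the lower. Read from the Cy3 array alone, Msmo1 was the only gene at 1 or more and none was at -1 or less. Read from the Cy5 array alone, Msmo1 and Sc5d were at 1 or more, and Abcg1, Cyp51, Insig2, Srebf2 and Tm7sf2 were at -1 or less. Of 20023 features, 442 were at 1 or more and 653 at -1 or less on the Cy3 array. On the Cy5 array these numbered 474 and 1789.

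Probes of the same gene disagreed in several cases, which the text above gives only for the genes it turns on. Of the 35 genes, 18 had more than 1 tested probe. In Pax5sz2 the mean ratios of the probes differed by 1 or more for Fdps (0.12 and 1.72), Hmgcs1 (-0.09 to 0.98), Hsd17b7 (-2.14 and -0.30), Idi1 (0.34 and -1.02) and Insig2 (0.40 and -0.63). The lowest of the Hmgcs1 probes, and the high probe of Fdps, carry accessions of cDNA clones and were dimmer than the brightest probe. At 300 ng/ml they differed by 1 or more for Cyp51, Insig2, Sc5d and Srebf2, and for Sc5d the dimmer probe read -0.38. Lss is represented by a probe of a cDNA clone, whose mean was -0.17 at 300 ng/ml, while its 2 RefSeq transcript probes read 0.63 and 0.43 there.

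**Figure D3:**
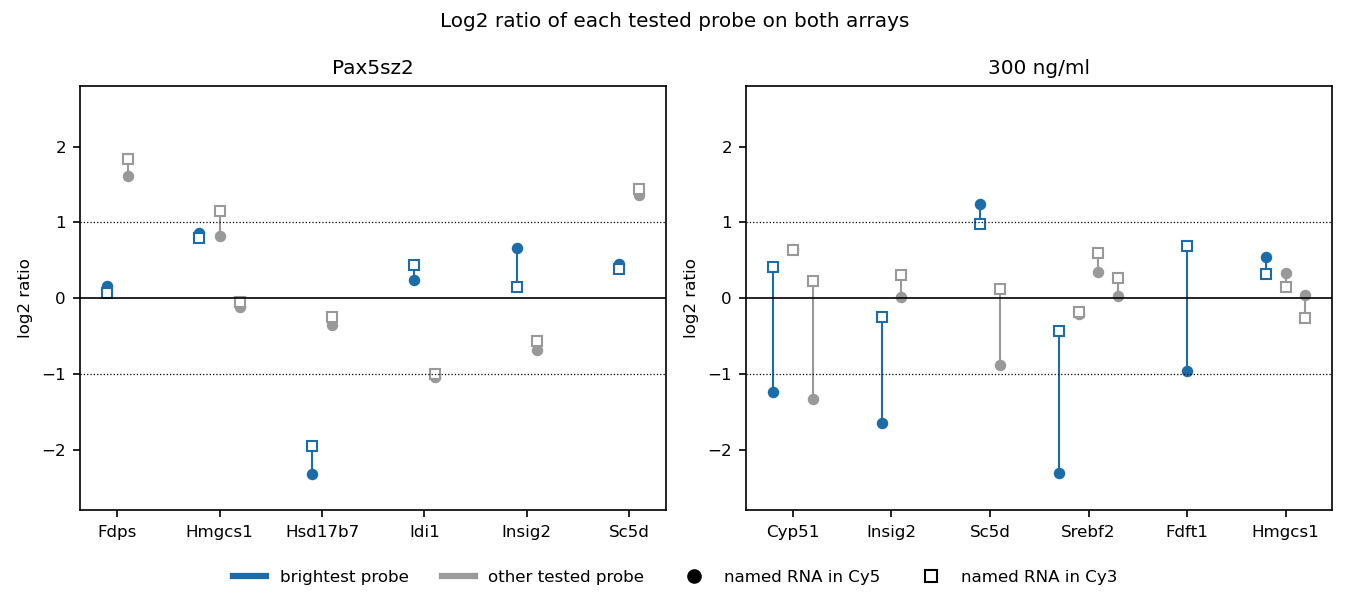
Log2 ratio over clone 4 without doxycycline (y axis) of each tested probe of selected genes (x axis) in Pax5sz2 (left) and at 300 ng/ml (right); blue marks the brightest probe and grey the others, circles arrays with the named RNA in Cy5, squares arrays with it in Cy3, and a line joins the arrays of a probe. The brightest Hsd17b7 probe lies near -2.14 in Pax5sz2 and the other near -0.30, and at 300 ng/ml the brightest probes of Cyp51, Insig2, Srebf2 and Fdft1 span more than 1 between arrays.

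The levels of both RNAs of the 1000 ng/ml pair were set beside those of clone 4 on the other arrays. Signal levels were put on a shared log2 scale, across slides read with different settings, so that levels of the 1000 ng/ml pair and of the 6 other arrays may carry a batch difference. For Elovl6 the RNA labelled clone 4 without doxycycline read 14.01 and 14.16 on the 1000 ng/ml pair and 11.42 to 12.33 on the 6 other arrays. The RNA labelled 1000 ng/ml read 11.56 and 12.23, inside that range. On this scale the high value was in the RNA labelled as the untreated control. Hmgcs1 read 14.57 in that RNA and 14.06 in the RNA labelled 1000 ng/ml, beside 13.71 to 13.93 in clone 4 on the other arrays. Sqle read 12.89 and 12.27, beside 11.58 to 12.03. Fdft1 read 10.58 and 10.01, beside 9.39 to 9.69. By these means of the arrays, both RNAs of the pair lay above that range for the 3 genes. On the array with the RNA labelled 1000 ng/ml in Cy5, Hmgcs1 read 13.90 in that RNA, inside the range. The RNA labelled 1000 ng/ml lay nearer to the clone 4 level of the other arrays than its labelled control did. That held for 27 of the 35 genes (77.1%), beside 62.7% of all features. Where the channels of the pair were 0.5 or more apart it held for 9 of 9 members, beside 89.7% of 2438 features. For Dhcr7 both RNAs of the pair, at 12.79 and 12.97, lay below the clone 4 range of the other arrays (13.58 to 13.94). Idi1 did so too, with 13.85 in both RNAs and a range of 14.19 to 15.07. A batch difference and a difference in 1 RNA of the pair cannot be told apart here.

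**Figure D4:**
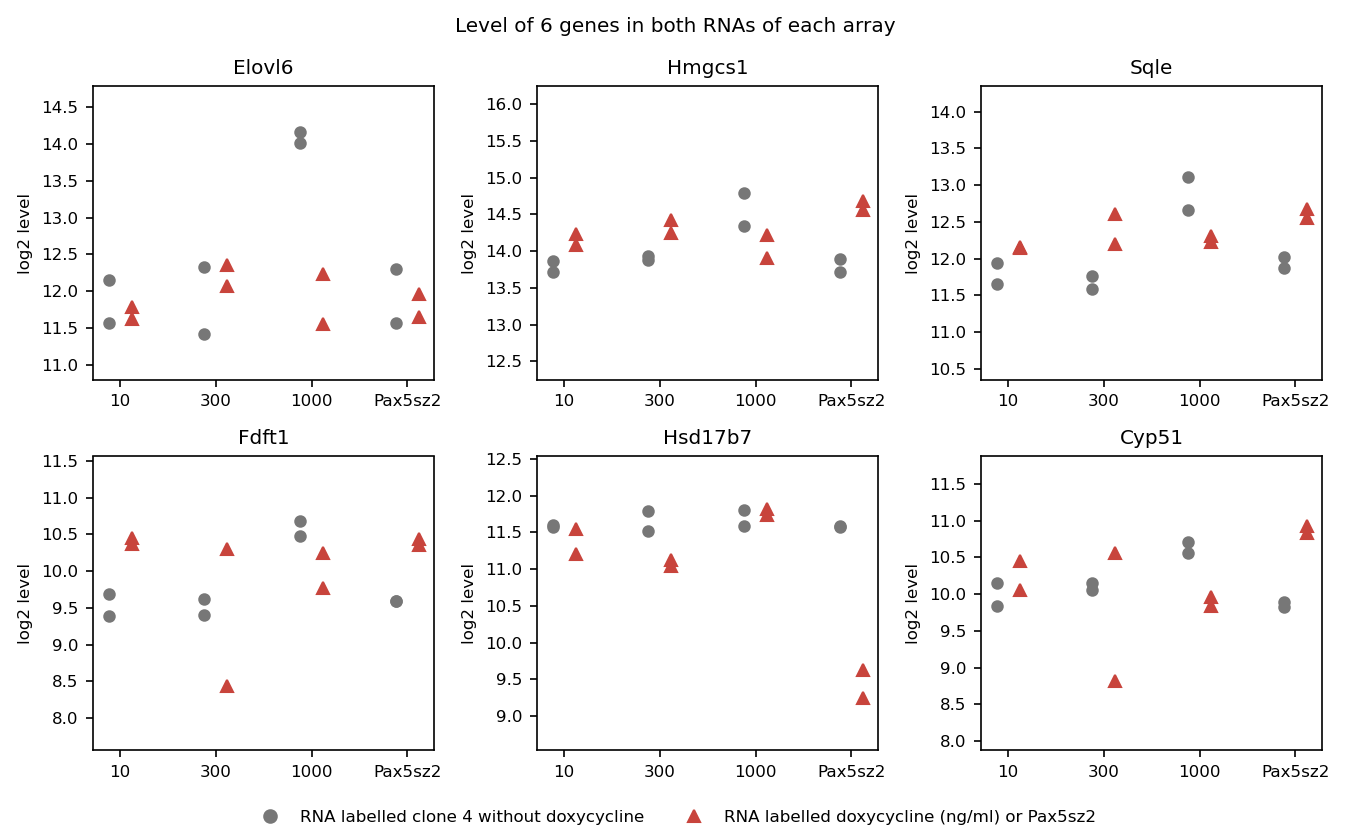
Log2 signal level (y axis) of 6 genes in both RNAs of each array, by comparison (x axis, doxycycline in ng/ml or Pax5sz2); grey circles are RNA labelled clone 4 without doxycycline and red triangles the RNA named on the axis, 1 point per array. The grey circles of Elovl6 stand at 14.01 and 14.16 on the 1000 ng/ml pair and at 11.42 to 12.33 elsewhere, and the red triangles of Hsd17b7 stand at 9.25 and 9.63 in Pax5sz2.

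Some genes kept 1 direction across doses and others turned. Acat2, Hmgcs1, Msmo1, Mvk, Sc5d and Sqle were above 0 on all 4 arrays of 10 and 300 ng/ml and below 0 on both of 1000 ng/ml as labelled, beside 11.6% of all features. Dhcr7, Hsd17b7, Npc1, Npc2, Srebf2 and Tm7sf2 did the reverse, beside 15.6%. With the sign turned, these 12 genes are the ones with the same sign on all 6 arrays of the doses. Signs in this paragraph are those of the brightest probes. Other tested probes of Hmgcs1, Sc5d, Dhcr7, Hsd17b7 and Srebf2 departed from this pattern on some or all arrays. Acat2, Ebp, Hmgcs1, Insig1, Msmo1, Sc5d, Soat1 and Sqle were above 0 on all 6 arrays outside the 1000 ng/ml pair, beside 17.3% of all features. Dhcr7, Hsd17b7, Npc2, Nsdhl, Scap and Srebf2 were below 0 on all 6, beside 18.5%. These comparisons share their clone 4 control, so a shared sign between them is not independent. Under another scaling the mean changed sign for Dhcr7 and Scap in all but the 1000 ng/ml comparison, for Hsd17b7 at 10 and 1000 ng/ml, for Srebf2 in Pax5sz2 and for Ebp at 1000 ng/ml; the other genes named here kept their signs in these comparisons, apart from Insig1 at 1000 ng/ml and Mvk in Pax5sz2. Soat1 and Ebp were above 0, and Nsdhl and Scap below 0, on all 8 arrays as labelled.

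A mean effect of doxycycline over the 3 doses (n = 3, with the arrays of a dose averaged) was tested with limma, adjusted by Benjamini-Hochberg over all features. Of 20023 features 0 passed an adjusted p of 0.05 (0%), with the smallest adjusted p at 0.700, and 1190 (5.94%) had an unadjusted p under 0.05, 3 of them members: Soat1, Scap and Nsdhl. With the 1000 ng/ml sign turned, 0 passed, with the smallest adjusted p at 0.120, and 4909 (24.5%) had an unadjusted p under 0.05, 11 of them members. With 10 and 300 ng/ml alone (n = 2), 2842 features passed (14.2%), 4 of them members, and 7586 (37.9%) had an unadjusted p under 0.05, 18 of them members. By limma, Msmo1 had an effect of 0.93 (SE 0.073, adjusted p = 0.0376), higher in 2 of 2 doses. Soat1 by its brightest probe had an effect of 0.88 (SE 0.067, adjusted p = 0.0376) by the same limma fit, also higher in 2 of 2. The other tested Soat1 probes had means of 0.16 and -0.04 at 10 ng/ml, and 0.04 and -0.12 at 300 ng/ml. Insig1 had an effect of 0.54 (SE 0.067, adjusted p = 0.0431), also higher in 2 of 2 by its brightest probe, and Tm7sf2 of -0.83 (SE 0.096, adjusted p = 0.0414), lower in 2 of 2, by the same limma fit. Both doses share the clone 4 RNA label, and the fit leaves out the spread of that control.

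Other genes of the pathway were also called in few cases. Between 0.609% and 2.83% of all features were called in a given direction and comparison. These lists are too short to be set apart from such shares. Of 18 tested genes of related sterol steps and SREBP processing, such as Lbr, Aacs and the Mbtps proteases, 0 were called in any comparison, with medians of -0.01, 0.11, 0.04 and 0.05 in the 4 comparisons. Of 23 tested genes of related fatty acid steps, Cpt1a, which brings fatty acids into mitochondria, was called higher at 1000 ng/ml as labelled (1.39). Fads3, a relative of the fatty acid desaturases, was called higher in Pax5sz2 (2.51). Of 17 tested LXR and sterol transport genes, Abca7, an ABC transporter, was called higher at 1000 ng/ml as labelled (1.36). Lipa, the lysosomal lipase that frees cholesterol from its esters, was called lower in Pax5sz2 (-1.33). With the sign turned, Cpt1a and Abca7 are lower at 1000 ng/ml.

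Markers of adipocytes and of stromal feeder cells, and interferon response genes, had medians above 0 in the 3 comparisons outside the 1000 ng/ml pair, where the medians of the 35 genes lay near 0. Of 10 tested adipocyte markers, all 10 were above 0 on both arrays at each lower dose and in Pax5sz2, with medians of 0.69, 0.48 and 0.92, and their median was 0.04 at 1000 ng/ml. Their summed log2 level was 13.13 to 13.72 in the named RNA and 11.88 to 12.16 in clone 4 on those 6 arrays, against 12.14 to 12.28 and 12.09 to 12.42 on the 1000 ng/ml pair. Fabp4, the fatty acid binding protein of adipocytes, had means of 1.39, 1.48, -0.13 and 1.83 in the 4 comparisons. Lep was not above background in clone 4 on any array. Of 12 stromal feeder markers 3, 7, 0 and 4 were called higher in the 4 comparisons, with medians of 0.84, 1.16, -0.12 and 0.82. Their summed log2 level was 15.17 to 15.60 in the named RNA and 13.70 to 14.36 in clone 4 on the 6 arrays outside the 1000 ng/ml pair. On that pair it was 14.21 to 14.47 in the named RNA and 14.27 to 14.49 in clone 4. Of 10 interferon response genes 7, 7, 1 and 5 were called higher in the 4 comparisons, with medians of 1.71, 1.71, 0.15 and 0.99. The part of adipocyte, stromal or interferon-responding RNA in the members' ratios was not tested.

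**Figure D5:**
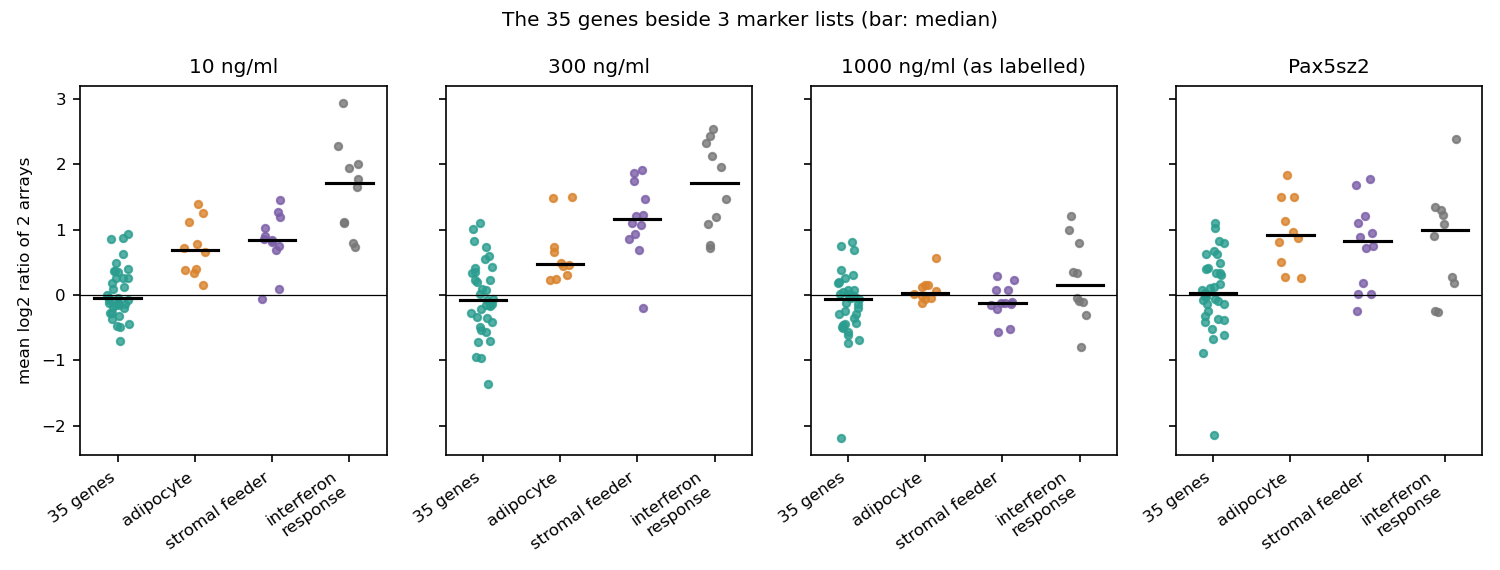
Mean log2 ratio of 2 arrays (y axis) of the 35 genes and of the genes of 3 marker lists (x axis) in the 4 comparisons; each point is a gene and the bar is the median. The 35 genes centre within 0.1 of 0 in each comparison, while the medians of the marker lists lie between 0.48 and 1.71 outside the 1000 ng/ml pair.

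Of 12 pro-B and pre-B cell markers, 9 were below 0 on both arrays at 10 ng/ml (36% of all features), and the medians in the 4 comparisons were -0.47, -0.17, -0.44 and -0.37. None of the 12 was called at 10 ng/ml, 2 were higher at 300 ng/ml and 4 lower at 1000 ng/ml as labelled. In Pax5sz2 3 were higher, Vpreb1 (7.88), Igll1 (5.65) and Vpreb2 (4.23), and 3 lower, Dntt (-4.89), Blnk (-3.41) and Ebf1 (-1.58). Of 8 neutrophil and mast cell markers 0 were called at 10 ng/ml, 4 lower at 300 ng/ml, 4 higher at 1000 ng/ml as labelled and 1 lower in Pax5sz2, with medians of 0.00, -1.19, 0.86 and -0.13. Of 7 tested macrophage markers, Mrc1 alone was called, lower at 300 ng/ml (-1.99) and higher at 1000 ng/ml as labelled (2.07). Of 4 tested T and NK cell markers, Nkg7 was called lower at 300 ng/ml and higher at 1000 ng/ml, and Nkg7 and Klrd1 were higher in Pax5sz2. With the sign of the 1000 ng/ml pair turned, the calls of these lists at 300 and 1000 ng/ml have the same direction. The part of these cells in the members' ratios was not tested.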

How the data were processed

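Total RNA was labelled with Cy3 and Cy5 and hybridised on 8 Agilent arrays of 43790 spots, per the labels' protocols. The deposited scanner files hold mean spot intensity and median background intensity per channel, not normalized, made with Agilent Feature Extraction (10.5.1.1 where a header gives it), per the file headers. The deposited series matrix holds log10 ratios, checked to equal the scanner log10 ratios within 5e-06 after a change of sign on arrays with the named RNA in Cy3.

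Background was corrected with normexp (offset 50) and log2 ratios were normalized within arrays by loess in R 4.3.3 with limma 3.58.1; control spots had weight 0 and outlier spots, 37 to 295 on an array, were dropped. Saturated spots numbered 0. Ratios were set so that values above 0 are higher in the RNA that names the comparison. Each name took its brightest probe, and a feature was tested if it was well above background in 1 RNA on both arrays of a comparison (20023 features, all 35 genes). Levels are channel log2 values after Aquantile scaling. Single comparisons used a size rule (log2 of 1 or more, same sign, both arrays); the mean effect used limma lmFit and eBayes with Benjamini-Hochberg adjustment. The steps were tested on simulated data. The number of arrays limits the precision, and p-values measure the spread between doses of 1 clone.

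Gene names came from the files and the RefSeq table (33026 of 41174 probes matched). The genes and the lists were chosen with earlier results of these data known. Full values are given for genes called or among the 3 largest ratios of their role in any comparison. Median centring, processed signals, no background correction, no filter on dim probes, the mean over probes, each array left out, the turned sign and the pair of 1000 ng/ml left out were tried. Some genes of the pathway are not reported here.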

Additional observations from a re-analysis of the deposited data

Results flagged for a closer look

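For 12 genes the arrays of 10 and 300 ng/ml all moved one way and both arrays of 1000 ng/ml the other, as labelled; the difference was not tested, and with the sign of the 1000 ng/ml pair turned it is absent for all 12. The mean log2 ratio over 10 and 300 ng/ml minus that at 1000 ng/ml was 1.39 for Msmo1, 1.29 for Sc5d, 1.16 for Sqle, 0.91 for Hmgcs1, 0.63 for Mvk and 0.51 for Acat2. It was -1.57 for Tm7sf2, -1.19 for Srebf2, -0.97 for Npc2, -0.73 for Npc1, -0.46 for Hsd17b7 and -0.36 for Dhcr7. The same opposition of signs held for 11.6% (higher at the lower doses) and 15.6% (lower) of all features. All 12 values are of brightest probes. For Srebf2 this is a cDNA clone probe, with -2.30 and -0.43 at 300 ng/ml. A dimmer Srebf2 probe of a RefSeq transcript had opposite signs, with means of 0.27, 0.48 and -0.20 at the 3 doses. Its remaining probes had means of -0.31, -0.20 and -0.14, and of 0.10, 0.15 and 0.03. The second Hsd17b7 probe had means of 0.12 and 0.24 at the lower doses.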

How the results depend on the processing

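With median centring in place of loess the count of genes called higher at 300 ng/ml fell to 0. With Agilent's processed signals Sc5d was called higher at 300 ng/ml in place of Msmo1, 1 gene was called higher at 1000 ng/ml (Soat1), and 2 higher (Cyp51 and Msmo1) and 2 lower (Hsd17b7 and Scd1) in Pax5sz2. With the mean over all tested probes 0 were higher in Pax5sz2. Read from either array alone, 0 to 2 genes were higher at 10 ng/ml, 1 to 2 higher and 0 to 5 lower at 300 ng/ml, and 1 to 2 higher in Pax5sz2. Of 20023 features, 188 to 193 were higher at 10 ng/ml and 557 to 619 in Pax5sz2 by the same reading. At 300 ng/ml 442 to 474 features were higher and 653 to 1789 lower. With the sign of the 1000 ng/ml pair turned, 1 was higher and 0 lower there, and the ratio of Elovl6 was 2.19. Without the 1000 ng/ml pair, the mean effect passed for 2842 features and 4 members. Apart from construction (fewer arrays, fewer doses, more probes per gene) the cause of these changes was not tested. Elovl6 at 1000 ng/ml and Hsd17b7 in Pax5sz2 were called under every alternative tried, in the sign as labelled or turned. Median centring moved the median of all features in Pax5sz2 from 0.03 to 0.15. The means of 12, 8, 7 and 10 members in the 4 comparisons (10, 300 and 1000 ng/ml, then Pax5sz2) changed sign under some scaling. No paired analysis was possible because the labels carry no replicate numbers that pair RNA samples; each ratio sets both RNAs of an array against each other, and both dye orientations of a comparison were averaged. The share of spots well above background is lowest on the 1000 ng/ml pair. Its threshold used another multiplier (2.6 against 13), so the shares are not on 1 scale. By that threshold Abca1 and Acaca are limited there.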
